A study of Mus musculus with 24 samples.

Results

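The epidermal differentiation complex on mouse chromosome 3 and the S100 genes that flank it were examined in brown adipose tissue (BAT). Fragments were included when they lay on chromosome 3 and the deposited annotation assigned them to a gene whose name starts with S100a, Sprr or Lce, or to Ivl, Lor, Flg, Flg2, Rptn, Hrnr, Tchh, Tchhl1 or Crct1. This rule took 248 of the 65535 MspI fragments in the table, assigned to 27 genes, and 34 of these fragments, on 7 genes, had enough reads to be tested. All DNA came from BAT of female C57BL/6J pups at PND 12, and DNA methylation was measured by reduced representation bisulfite sequencing (RRBS), in which the enzyme MspI cuts at CCGG and the short fragments are bisulfite treated and sequenced. Dams received either the isomers o,p'-DDT and p,p'-DDT together in olive oil (DDT) or olive oil alone (VEH) by gavage, from mid-gestation into the first postnatal week. Each group held 12 libraries, and each library was a pool of 2 to 5 littermates, so that variation between pups of 1 litter was not measured. Methylation data hold no expression, and the identity of the tissue could not be checked against marker transcripts.

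The epidermal differentiation complex is a cluster of genes that are switched on together in the outer layers of skin, where their proteins are cross-linked into the cornified envelope. Loricrin (Lor) and the small proline-rich (Sprr) and late cornified envelope (Lce) proteins are building blocks of that envelope, whereas filaggrin (Flg), filaggrin-2 (Flg2), repetin (Rptn) and trichohyalin (Tchh) are fused S100 proteins, in which a calcium-binding S100 domain precedes long repeats. The S100a genes encode small calcium-binding proteins, several of which, such as S100a11, are made in many tissues besides skin. In most tissues, CpG-dense promoters carry little methylation and most of the remaining genome carries much.

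The sequences below are those that the results turn on. They were read from the GRCm38.p6 reference at the deposited coordinates, run 5′ to 3′ on the plus strand, and have each CpG in capitals; the first CpG of each is that of the MspI site. For Lor, whose gene lies on the minus strand, they are the most and the least methylated fragments and a pair of neighbours that differed.
Lor chr3:92080747-92080854: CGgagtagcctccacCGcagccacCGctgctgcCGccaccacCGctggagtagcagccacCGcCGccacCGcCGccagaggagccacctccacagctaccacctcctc
Lor chr3:92081521-92081577: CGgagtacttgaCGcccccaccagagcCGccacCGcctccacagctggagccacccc
Lor chr3:92081092-92081184: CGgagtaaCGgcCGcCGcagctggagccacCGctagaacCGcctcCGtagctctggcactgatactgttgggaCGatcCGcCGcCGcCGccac
Lor chr3:92081185-92081220: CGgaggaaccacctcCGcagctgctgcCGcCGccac
From the fused S100 genes, a Tchh coding fragment and the adjacent pair upstream of Flg that differed most are given.
Tchh chr3:93446522-93446563: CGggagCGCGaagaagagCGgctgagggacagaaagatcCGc
Flg chr3:93225800-93225865: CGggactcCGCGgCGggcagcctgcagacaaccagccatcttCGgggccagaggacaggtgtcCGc
Flg chr3:93225866-93225913: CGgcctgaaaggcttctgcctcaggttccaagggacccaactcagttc
The last set holds the fragment just before the start of S100a11 and the most methylated fragments near S100a7a, S100a16 and Crct1, each of which has 1 CpG.
S100a11 chr3:93520442-93520481: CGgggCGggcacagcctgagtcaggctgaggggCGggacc
S100a7a chr3:90636772-90636805: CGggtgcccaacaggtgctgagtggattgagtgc
S100a16 chr3:90537939-90537994: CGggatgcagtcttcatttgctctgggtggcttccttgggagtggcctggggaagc
Crct1 chr3:93015892-93015968: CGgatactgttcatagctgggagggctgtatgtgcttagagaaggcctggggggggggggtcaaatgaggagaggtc

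A methylation level is the percentage of CpG calls in a fragment that were methylated in 1 library. It was given where the library had at least 10 calls, and a fragment was tested when both groups had levels in 8 libraries or more. Libraries held 8371958 to 14124652 calls over the whole table, of which 12936 to 27123 fell on the 248 fragments. The mean level over all 20225 tested fragments was 31.6% to 33.9% in the VEH libraries. It was 31.5% to 34.2% in the DDT libraries other than replicate 4, at 16.9%, and replicate 12, at 28.4%. Replicate 4 of DDT thus stood apart from the other 23 libraries over the whole table, and the named group differences that it moved most are also given without it.

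Most fragments of the complex could not be measured. Of the 248, 152 had no call in any library (61.3%, against 24.5% of all fragments of the table), 62 had calls but too few to be tested, and 34 were tested (13.7%, against 30.9% of all). The proline-rich and late envelope genes had none to test, with 0 of 33 Sprr fragments and 0 of 15 Lce fragments, and Flg2 had 0 of 99. Lor supplied 16 tested fragments and Tchh 7. Crct1 (cysteine-rich C-terminal 1), Flg and S100a11 had 3 each, and S100a16 and S100a7a 1 each. The GENCODE annotation lists 61 genes and pseudogenes that match the rule, and 34 of them, among them Ivl, Hrnr, Tchhl1 and S100a8, had no fragment in the table.

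**Figure D1:**
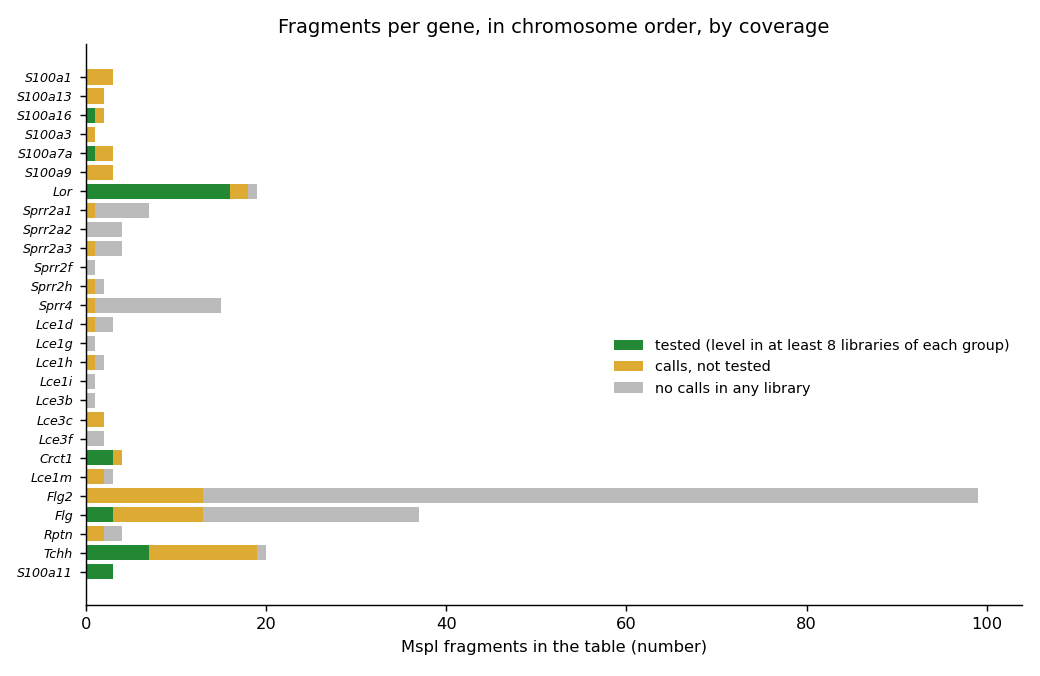
The horizontal bars count the MspI fragments assigned to each of the 27 genes, divided into tested fragments, fragments with calls that were not tested, and fragments with no call. Flg2 has the longest bar, with 86 of its 99 fragments lacking calls, and Lor has the most tested fragments, 16.

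The fragments without calls were repetitive. Their first 40 bases occurred more than once on chromosome 3 in 146 of 152 (96.1%), against 25 of the 62 with too few calls (40.3%) and 2 of the 34 tested (5.88%). They were also longer, with a median length of 117 bp in both sets of fragments that were not tested and 50.5 bp in the tested ones. The repeat is plain in Flg2, whose 99 fragments hold 48 different sequences. The most frequent of these occurred in 19 fragments, the first at chr3:93203897-93204013 and the last at chr3:93219359-93219475, and is shown because it is the unit that mostly went unread.
Flg2 repeat: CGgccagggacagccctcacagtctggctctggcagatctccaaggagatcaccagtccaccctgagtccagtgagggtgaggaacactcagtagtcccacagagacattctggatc
Of the 19 fragments, 2 had any call. How far copy number and length each account for the missing calls was not tested.

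In VEH, the 34 tested fragments ranged from 1.52% to 94.6%, with a median of 5.33%, against a median of 11% over all tested fragments. A level under 10% was found in 24 of the 34 (70.6%, against 48.1% of all tested fragments), and 4 exceeded 70%. The low ones were mostly from Lor and Tchh, which together hold 23 of the 34, so that the median describes those genes more than the complex.

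**Figure D2:**
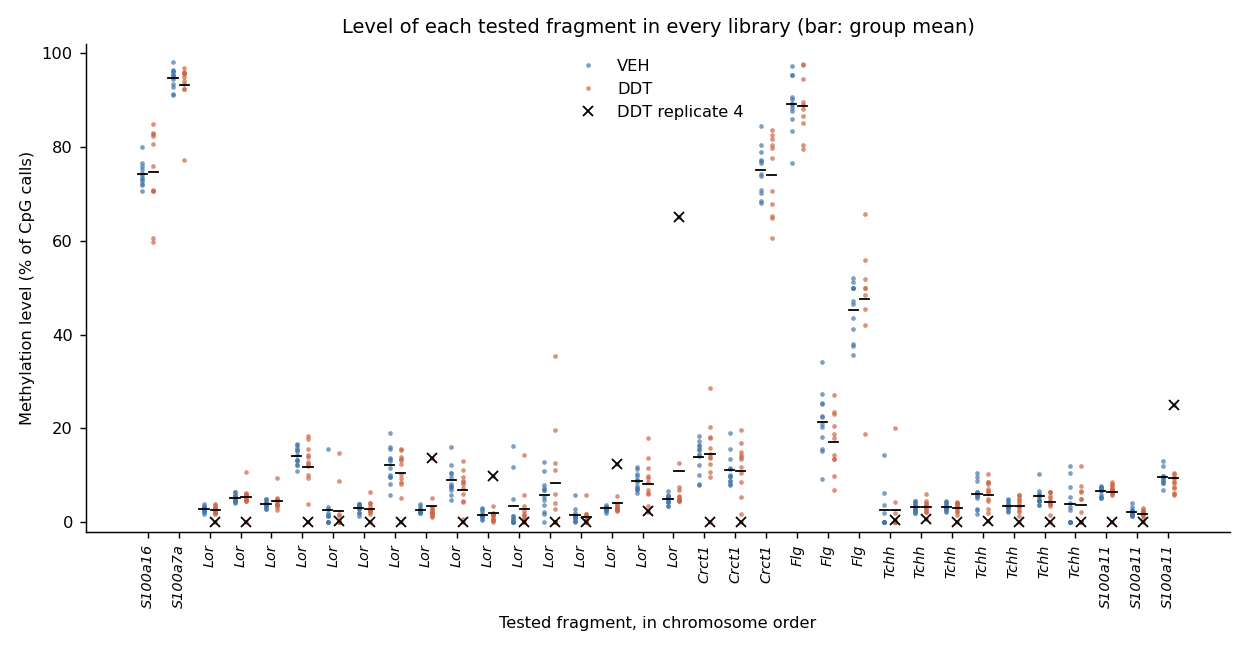
Each point is the methylation level in percent of 1 library at 1 of the 34 tested fragments, in chromosome order, with VEH in blue, DDT in orange, group means as bars and replicate 4 of DDT as crosses. The groups overlap at every fragment shown, which was not counted over all tested fragments. The crosses lie at or near 0 at most of the fragments where that library has a level but at 65.0% at 1 Lor fragment.

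Among the S100a genes, S100a11 carried little methylation at its start. The fragment ending 8 bp before its start had 6.56% ± 0.90 in VEH (SD, n = 12), with a lowest library of 5.14%, a median of 6.86% and a highest of 7.65%. The next fragment, chr3:93520482-93520532, which spans the deposited start and overlaps the 5′ untranslated region, was lower, at 2.15% ± 0.85 (n = 12; 1.28%, 1.89% and 4.15%). It was the lower of the pair in 12 of 12 VEH libraries, by 4.41 percentage points (two-sided exact sign-flip permutation test, p = 0.000488, the smallest possible with 12 libraries; adjusted p = 0.000830 over the 17 adjacent pairs tested below). In the first intron, chr3:93520786-93520835 had 9.52% ± 1.62 (n = 12; 6.92%, 9.50% and 13.1%).

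The other tested S100a fragments were highly methylated. The S100a16 fragment, in an intron 739 bp from the start, had 74.2% ± 2.51 (n = 12), from 70.7% through a median of 73.7% to 80.0%. The S100a7a fragment lay 17498 bp upstream, in sequence that GENCODE leaves intergenic, and had the highest VEH mean of the 34, 94.6% ± 2.11 (n = 12), from 91.1% through 95.2% to 98.1%. S100a7a belongs to the S100 genes known from inflamed skin. A fragment 687 bp upstream of S100a1, chr3:90515078-90515148, reached 10 calls in 15 libraries and was not tested. Pooled over all libraries, 18.1% of its 475 calls were methylated (95% Wilson interval 14.9% to 21.8%), and 21.5% of the 396 calls outside replicate 4 of DDT. Such intervals cover counting error only, since several calls can come from 1 read and no molecular identifiers were counted.

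Lor, the main protein of the cornified envelope, carried little methylation along its coding exon. Its 16 tested fragments all lay in coding sequence, 1443 to 2499 bp from the start of the gene, and had VEH means of 1.52% to 14.0%, with a median of 3.62%. They were not uniform. The most methylated, chr3:92080747-92080854, had 14.0% ± 1.87 (n = 12), from 10.9% through a median of 13.8% to 16.7%. The least methylated, chr3:92081521-92081577, had 1.52% ± 1.55 (n = 12), from 0.00% through 1.23% to 5.82%, and the libraries of these fragments do not overlap.

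Neighbouring Lor fragments differed in level. Of the 13 adjacent Lor pairs, 11 differed in VEH at an adjusted p under 0.05 in the sign-flip test. Over all 5 genes with such pairs the count was 15 of 17, and the smallest step that passed was 1.30 percentage points. Adjacent fragments elsewhere in the table were not tested, so these counts cannot be called particular to Lor or to the complex. In the pair printed above, chr3:92081092-92081184 had 12.1% ± 3.74 and chr3:92081185-92081220 had 2.54% ± 0.59 (each n = 12), a step of 9.57 percentage points with the first higher in 12 of 12 libraries (adjusted p = 0.000830). In the DDT libraries the mean difference had the same sign in 16 of the 17 pairs. The exception was the pair chr3:92081620-92081697 and chr3:92081698-92081736, with a mean difference of 3.88 in VEH and -2.74 in DDT, where the first was still higher in 8 of 12 DDT libraries. Without replicate 4 of DDT that difference was 2.70, and the sign was the same in 17 of the 17 pairs.

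Length moved with many of these steps but not with all. The neighbours chr3:92080642-92080677 and chr3:92080678-92080713, each 36 bp long, had VEH means of 2.79% and 5.18%. The 45-bp fragment chr3:92081476-92081520, at 5.83%, exceeded its 57-bp neighbour chr3:92081521-92081577, at 1.52%. The 6 Lor fragments of 78 to 108 bp had VEH means of 2.51% to 14.0% with a median of 8.82%, whereas the 10 fragments of 33 to 57 bp had 1.52% to 5.83% with a median of 2.95%. The rank correlation of length and mean level over the 16 fragments was 0.40 (Spearman) and the linear correlation 0.68 (Pearson), as a description of fragments that share libraries and a gene. In the whole table, fragments that the deposited annotation marks as the core of a CpG island had median VEH levels of 2.82% to 4.43% in length classes up to 100 bp and 9.48% from 101 to 220 bp. No tested Lor fragment carries that mark, and fragments without it went the other way, from 70.7% at 65 to 79 bp to 20.9% at 80 to 100 bp and 19.8% from 101 to 220 bp. The part of length in the Lor pattern was not tested.

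**Figure D3:**
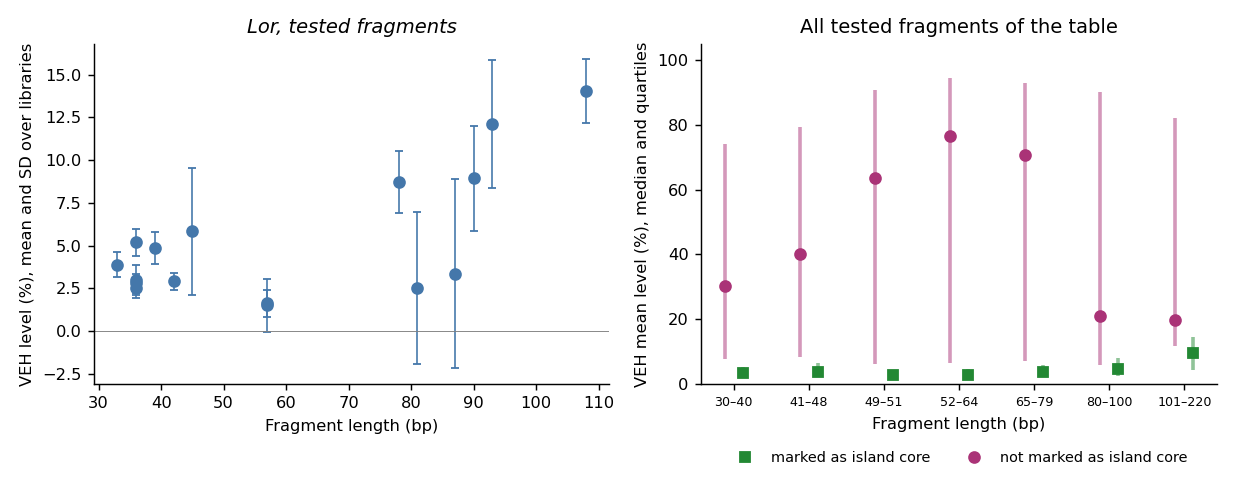
The left panel plots the VEH level in percent (mean and SD over libraries) of the 16 Lor fragments against length in bp, and the right panel the median and quartiles of VEH mean levels by length class for all tested fragments, split by whether they are marked as island core. The 4 Lor fragments above 8% are 78 bp or longer, and unmarked fragments of 30 to 48 bp and of 80 bp or more have lower medians than those of 52 to 79 bp.

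Tchh, which hardens the inner root sheath of the hair follicle, was as low. Its 7 tested fragments, in the coding exon and in an intron of the overlapping gene Gm37245, had VEH means of 2.62% to 5.94% with a median of 3.45%. The fragment chr3:93446522-93446563 printed above had 3.24% ± 0.75 (n = 12), from 2.13% through 3.12% to 4.50%. Its neighbour of 132 bp, chr3:93446564-93446695, had 5.94% ± 2.75 (n = 12), from 1.72% through 5.82% to 10.5%, and was higher in 10 of 12 libraries (adjusted p = 0.00447 in the exact sign-flip permutation test). Both this neighbour and chr3:93445856-93445915 begin with 40 bases that recur on chromosome 3, in 3 and 4 copies.

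**Figure D4:**
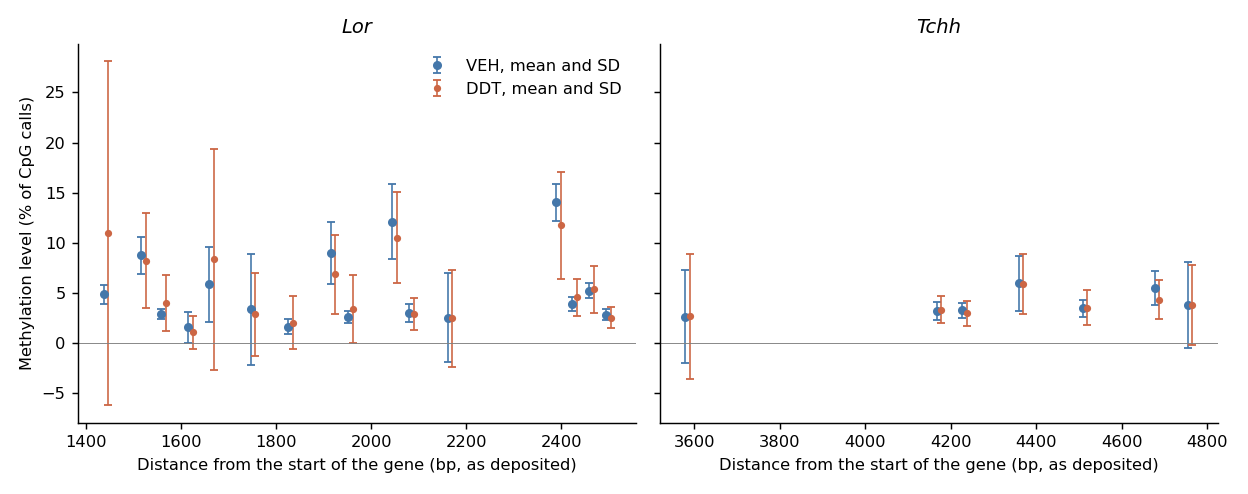
Methylation levels in percent (mean and SD over the libraries of VEH in blue and DDT in orange) are plotted against distance in bp from the start of the gene, in the Lor (left) and Tchh (right) coding exons. VEH means run from 1.52% to 14.0% in Lor and from 2.62% to 5.94% in Tchh, and the widest error bar, at a Lor fragment in DDT, spans a group that includes a library at 65.0%.

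The coding exons of Lor and Tchh are CpG islands. The table lists an island of 1310 bp with 151 CpGs in Lor, chr3:92080594-92081903, and 1 of 4338 bp with 336 CpGs in Tchh, chr3:93443614-93447951, with observed-to-expected CpG ratios of 0.90 and 0.87. All 23 tested Lor and Tchh fragments lie inside them, but the island class on those rows is empty and none is marked as core. Over the whole table, 1427 of the 8239 tested fragments inside a listed island (17.3%) were likewise not marked. As a comparison from the whole table, tested exon fragments inside listed islands and over 1000 bp from the start of their gene had a median VEH level of 5.12% (330 fragments), against 53.5% for exon fragments outside listed islands (1775 fragments).

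Filaggrin, which aggregates keratin filaments, differed from its relative Tchh. A coding fragment, chr3:93292960-93292990, 790 bp from a start in the deposited annotation, had 45.3% ± 5.85 (n = 12), from 35.7% through 46.8% to 52.2%. That annotation measures Flg fragments from different starts. A second coding fragment, chr3:93280103-93280196, was read too thinly to be tested and had 92.5% of 586 pooled calls methylated (95% Wilson interval 90.1% to 94.4%). Flg2 gave pooled levels of 89.8% to 96.3% at the 7 fragments with at least 30 calls, none of which was tested.

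The sharpest step was upstream of Flg. The intergenic fragment chr3:93225800-93225865, 47677 bp from an annotated start of Flg, had 89.1% ± 5.66 (n = 12), from 76.7% through 89.2% to 97.3%. The fragment that follows it directly, chr3:93225866-93225913, had 21.4% ± 6.51 (n = 12), from 9.15% through 21.6% to 34.2%. The groups of values do not overlap, the difference was 67.8 percentage points, and the first was higher in 12 of 12 VEH libraries (adjusted p = 0.000830) and in all 10 DDT libraries with both levels. The first is 66 bp long with 6 CpGs, and the second 48 bp with 1, at its MspI site. In the whole table, tested fragments not marked as island core had a median VEH level of 30.3% at 30 to 40 bp and 40.2% at 41 to 48 bp, against 76.6% at 52 to 64 bp and 70.7% at 65 to 79 bp, the class of the longer fragment of the pair. In longer classes the median fell again, as given above for Lor. The paper's read length for the infant libraries lies between the lengths of these fragments. A read could thus cover the 48-bp fragment whole but not the 66-bp one. The part of fragment length and read length in the step was not tested, so it cannot be taken as a boundary of methylation in the tissue.

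Crct1 also carried a high and a low part. Its fragment 206 bp upstream had 75.1% ± 5.05 (n = 12), from 68.1% through 75.4% to 84.6%. The coding fragment chr3:93014531-93014650 had 11.2% ± 3.35 (n = 12), from 7.87% through 9.95% to 19.1%. The adjacent fragment chr3:93014500-93014530, at the end of the coding sequence, had 13.8% ± 3.53 (n = 12), higher by 2.67 percentage points and in 9 of 12 libraries (adjusted p = 0.0421 in the exact sign-flip permutation test). No island is listed over the coding exon of Crct1.

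The genes with a tested fragment within 1000 bp of a start in the deposited annotation were ranked by VEH mean, using the nearest fragment. For Flg that start is not the one from which its upstream fragments were measured. Measured from that other start, its ranked fragment lies well inside the gene, so its place is not that of a settled promoter. Crct1 (75.1%) and S100a16 (74.2%) came first and were not told apart, with a mean difference of 0.85 ± 5.99 percentage points (SD, n = 12) and Crct1 higher in 6 of 12 libraries (two-sided exact sign-flip permutation test, adjusted p = 0.637). S100a16 exceeded Flg (45.3%) by 28.9 ± 7.40 percentage points and Flg exceeded S100a11 (6.56%) by 38.7 ± 5.79, each in 12 of 12 libraries (adjusted p = 0.000732 over 3 pairs). The order without VEH replicate 4 had S100a16 before Crct1. Ranking and test used the same VEH libraries, so these p-values do not test an order that was set beforehand.

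Fragments assigned to other genes within the same interval, from the first to the last fragment of the complex, had higher levels. Their median VEH level was 82.7% over 30 tested fragments of 10 genes. Most of these are classed as upstream, up to 407513 bp from the named gene, and none lies in a listed island. Of the 34 tested fragments of the complex, 23 lie in listed islands, so the sets differ in the kind of sequence. Kprp, a keratinocyte proline-rich protein gene between the Lce genes, gave the closest comparison, with 3 tested coding fragments at 79.9% ± 6.05 (n = 11), 92.4% ± 2.99 (n = 12) and 99.8% ± 0.60 (n = 10). No island is listed over those fragments. These levels are descriptions, since the interval was set by the members and fragments of 1 gene are not replicates.

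The comparison of DDT with VEH asked whether perinatal exposure altered methylation at these genes. None of the 34 fragments had an adjusted p under 0.05 (one-way ANOVA with Benjamini-Hochberg adjustment over all 20225 tested fragments; smallest 0.869), as was the case for 0% of all tested fragments. None had an unadjusted p under 0.05, against 4.18% of all tested fragments (845). The level was lower in DDT at 21 and higher at 13, so 61.8% were lower, against 56.9% of all tested fragments. The median difference was -0.09 percentage points, against -0.16 over all. Without replicate 4 of DDT, 17 were lower and 17 higher. The groups overlapped at each of the 34 fragments. Overlap was not counted over all tested fragments, so it cannot be called particular to these genes. The paper reports differentially methylated genes in DDT-exposed infants from a genome-wide search. The absence of calls here covers only the fragments tested.

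**Figure D5:**
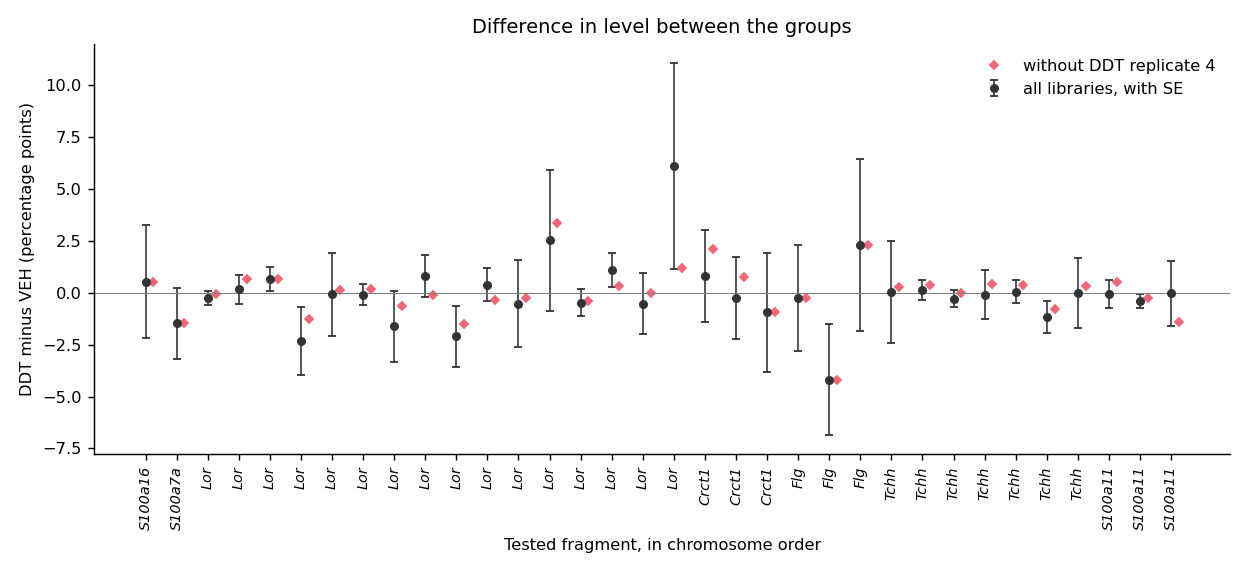
Black points give the DDT minus VEH difference in percentage points, with its standard error, at the 34 tested fragments in chromosome order, and red diamonds the same without replicate 4 of DDT. Differences run from -4.19 at Flg to 6.10 at Lor, where the value without that library is 1.18.

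The smallest p among the 34 belonged to the 48-bp fragment upstream of Flg. Its DDT libraries ran from 6.87% through a median of 18% to 27.1%, against 9.15% through 21.6% to 34.2% in VEH. Of 11 DDT libraries, 8 were below the VEH median. The means were 17.2% ± 6.21 (n = 11) and 21.4% ± 6.51 (n = 12), a difference of -4.19 ± 2.66 percentage points (SE; ANOVA p = 0.130, adjusted p = 0.869). Without VEH replicate 8, the lowest VEH library, it was -5.30 with an unadjusted ANOVA p of 0.0471, and without VEH replicate 10, the highest, it was -3.02 with p = 0.236.

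In Tchh, chr3:93446978-93447013 had 4.30% ± 1.97 in DDT and 5.47% ± 1.73 in VEH (each n = 12), a difference of -1.18 ± 0.76 (SE; ANOVA p = 0.134, adjusted p = 0.869). The DDT libraries ran from 0.07% through 4.39% to 6.49% and the VEH libraries from 3.67% through 5.07% to 10.2%. The difference was -0.75 without VEH replicate 10, -0.79 without replicate 4 of DDT and -0.48 without replicates 4 and 12 of DDT. The differences at the other 6 Tchh fragments ran from -0.29 to 0.12 percentage points, and from -0.03 to 0.43 without replicate 4 of DDT.

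In Lor, 6 fragments were among the 10 with the smallest p. At chr3:92081221-92081310 DDT was lower by 2.11 ± 1.45 percentage points (6.82% against 8.93%; DDT 0.00% through 7.68% to 13.1%, VEH 4.82% through 7.96% to 16.1%; ANOVA p = 0.161). The difference was -1.49 without replicate 4 of DDT and -0.80 without replicates 4 and 12 of DDT. At the most methylated Lor fragment, chr3:92080747-92080854, the difference was -2.32 ± 1.64 (11.7% against 14.0%; ANOVA p = 0.172). It was -1.25 without replicate 4 of DDT and -0.37 without replicates 4 and 12 of DDT. At chr3:92081698-92081736 it was 6.10 ± 4.97 in the other direction (10.9% against 4.84%; ANOVA p = 0.233). That mean rests on 1 library. Replicate 4 of DDT had 65.0% there, the next highest library of either group 12.6%, and the difference without it was 1.18. The other 3 differed by 1.08, 0.65 and -1.61 percentage points, of which the first, at chr3:92081578-92081619, was 0.32 without replicate 4 of DDT, the second, at chr3:92080714-92080746, 0.15 without replicate 12 of DDT, and the last, at chr3:92081092-92081184, -0.67 without replicate 4 of DDT.

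S100a11 differed little. The differences at its 3 fragments were -0.08 ± 0.69, -0.40 ± 0.35 and -0.02 ± 1.56 percentage points from the upstream fragment to the intron. The second, which spans the start, had the smallest p of the S100a genes (ANOVA p = 0.265). Without replicate 4 of DDT the differences were 0.51, -0.24 and -1.44, the last with an ANOVA p of 0.0521, and the second was -0.21 without VEH replicate 12. At S100a7a the difference was -1.48 ± 1.70 (93.2% against 94.6%; ANOVA p = 0.396), and 0.11 without replicate 12 of DDT. At S100a16 it was 0.53 ± 2.70 and at the fragment 206 bp upstream of Crct1 -0.96 ± 2.86.

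The spread between DDT libraries was wider than between VEH libraries, with a median SD over the 34 fragments of 4.07 against 1.84 percentage points (3.66 against 2.36 over all tested fragments). Replicate 4 of DDT had a level at 27 of the 34, and was the single lowest of all libraries at 15 and the highest at 5. The other 23 libraries were an extreme at 0 to 8 fragments each. Its levels split within genes. Of 6188 Tchh calls, 0.11% were methylated, against 2.86% to 5.19% in the other libraries, whereas 14.7% of its S100a11 calls were methylated, against 3.23% to 5.99%. Within S100a11 it had 0.00% at both fragments around the start and 25.1% of 674 calls in the intron. At a Lor fragment that was not tested, chr3:92080855-92080974, 330 of its 339 calls were methylated, against 42 of 323 in the other libraries together. It had no call at 5 of the 34 fragments, those of S100a16 and Flg and the upstream fragment of Crct1. Without this library the median SD in DDT was 2.94 percentage points.

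Neighbouring genes and a list of genes outside the complex were counted in the same way. Of a list of 7 neighbours in the complex, Pglyrp3 and Kprp had 16 tested fragments. Of these, 1 (6.25%, against 4.18% of all tested fragments) had an unadjusted p under 0.05. It lay 364977 bp upstream of Pglyrp3, at 84.1% ± 5.41 in DDT and 80.4% ± 2.39 in VEH (each n = 12; ANOVA p = 0.0432, adjusted p = 0.869). All fragments of other genes between the first and last fragment of the complex numbered 30, these 16 included. Of them, 3 (10%, against 4.18% of all tested fragments) had an unadjusted ANOVA p under 0.05, 1 lower and 2 higher in DDT. The smallest was 0.0182 (adjusted p = 0.869). Of a list of 15 genes outside the complex, chosen as cornified envelope genes or regulators, 9 had 43 tested fragments. The 9 were Tgm2, Tgm3, Tgm5, Tgm6, Ovol2, Anxa9, Them4, Them5 and Serpinb5. A role of each in the envelope was not checked. Of the 43 fragments, 28 were lower and 15 higher in DDT (65.1% lower, against 56.9% of all tested fragments). None of the 43 had an unadjusted p under 0.05, against 4.18% of all, with a smallest of 0.0561 and a median difference of -0.34 percentage points, against -0.16 over all.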

How the data were processed

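RRBS was performed by the authors on BAT DNA pooled from littermates. Per the labels and the study's methods, MspI libraries were sequenced from 1 end, trimmed with Scythe and Sickle, and aligned to GRCm38 with Bismark 0.15.0 and Bowtie2. The deposited table gives raw counts of methylated and unmethylated CpG calls per MspI fragment and library (65535 fragments on chromosomes 1, 2 and 3), with gene and CpG island annotation; the annotation release is not given in the sources used here. All 24 libraries were used and 0 columns of calls lacked a sample. Depth was 8371958 to 14124652 calls per library. Counting error and read duplication cannot be told apart.

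Levels were computed as methylated over all calls (at least 10) and compared between DDT and VEH by one-way ANOVA, the study's test, with Benjamini-Hochberg adjustment over all 20225 fragments with levels in at least 8 libraries per group. With an ANOVA F test and Benjamini-Hochberg correction, the paper reports differentially methylated genes in BAT of DDT-exposed infants (adjusted p under 0.05). That search was genome-wide. The fragments tested here cover part of the genome and were chosen by the call minimums given above, so the paper's result was not re-tested. Why no fragment passed here was not tested. Differences are DDT minus VEH. Adjacent fragments and genes were compared within VEH libraries by an exact sign-flip permutation test. Adjacent pairs were chosen after the data were seen. Fragments named were the one nearest each start, the 10 smallest p, and the highest and lowest VEH means; others are given as examples chosen after their values were seen. Members, lists and tests were chosen with earlier results of these data known. Sequence and gene structure came from GRCm38.p6 and GENCODE M21. Alternatives were quasi-binomial logistic regression, limma 3.58.1 on log2((methylated + 1)/(unmethylated + 1)), minimums of 5 and 20 calls, levels in all libraries, a depth covariate, a replicate block and libraries left out, in Python 3.11.15, SciPy 1.17.1 and R 4.3.3. The tests were checked on simulated data.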

Additional observations from a re-analysis of the deposited data

Results flagged for a closer look

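A library far from the rest of its group was looked for at fragments with levels in 8 to 10 libraries of a group. This left 4 groups of values, and 3 had one by Dixon's criterion. Chance marks about 1 in 20 groups where values follow a normal distribution. The 2 Tchh groups below do not, since each has a median of 0%, so that rate does not apply to them. At the Flg coding fragment chr3:93292960-93292990, replicate 3 of DDT had 18.8% (3 of 16 calls), and the next lowest of the 9 DDT libraries 42.1%. At the Tchh fragment chr3:93445856-93445915, replicate 11 of VEH had 14.3% (5 of 35 calls), and the next highest of 10 VEH libraries 6.25%. At the same fragment, replicate 6 of DDT had 20% (16 of 80 calls), and the next highest of 10 DDT libraries 4.24%. These values rest on few calls, and the Tchh fragment is the one with 4 copies of its first 40 bases on chromosome 3.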

How the results depend on the processing

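No member fragment had an adjusted p under 0.05 under any alternative, all libraries left out in turn included, and no fragment of the whole table did either. At an unadjusted p under 0.05 there were 0 in the ANOVA, 3 by quasi-binomial logistic regression (1562 of the 20225 tested fragments passed there) and 0 to 1 with each library left out; the 1 was the 48-bp Flg fragment without VEH replicate 8. The 3 were the Lor fragments chr3:92080747-92080854 (p = 0.0370), chr3:92081221-92081310 (p = 0.0436) and chr3:92081476-92081520 (p = 0.0155; adjusted p = 0.589 with the quasi-binomial model). The cause was not tested. With a replicate block 0 passed either threshold. No label says that the numbers pair litters, and deviations of same-numbered libraries correlated at -0.18 to 0.20, with 1 of 24 libraries closest to its own number. Among the 10 fragments with the smallest p, S100a7a reversed, from -1.48 to 0.11 without DDT replicate 12 (-1.84 to 0.11 with each library left out), and to 0.11 also without DDT replicates 4 and 12 together; the other 9 kept their sign under each alternative run. The 2 of 3 ordered pairs and the 15 of 17 adjacent pairs that differed stayed within 1.5 times those counts under each alternative, and family medians moved by less than 1 SD between libraries. Levels of fragments with under 100 calls per library are the least precise.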
